A study of Mus musculus with 2 samples.

Results

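The genes described here are 31 members of cholesterol and fatty acid synthesis, taken by symbol from a table of read counts for 35275 Ensembl gene identifiers. All 31 were found, and all 31 had at least 20 counts over both libraries, with 209 as the lowest sum. Polyadenylated RNA came from mesenchymal stem/progenitor cells (MSPC) of the bone marrow of C57BL/6 mice, stroma with the capacity to become bone, cartilage or fat cells. The control group was Ptpn11+/+ (1 library) and the mutant group Ptpn11E76K/+ (1 library). E76K is an activating change in SHP2, the phosphatase encoded by Ptpn11, which acts in RAS-ERK signalling. Mice of both groups carried Nestin-Cre, a recombinase under a nestin promoter, so neither group was free of Cre. The sort kept cells with CD140 and Sca-1 on the surface and without CD45, Ter-119 or CD31. The design text of the series speaks of 2 replicates, but each genotype has 1 column of counts, and the sources used here do not say whether a column pools mice. With 1 library per genotype there is no test between genotypes, and every difference below compares these 2 libraries only.

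Cholesterol is built from acetyl-CoA through mevalonate and squalene, and the ring system of lanosterol is then trimmed to cholesterol by enzymes of the endoplasmic reticulum. Fatty acids are built from the same acetyl-CoA by acetyl-CoA carboxylase and fatty acid synthase and are then elongated and desaturated. Both branches are known targets of the SREBP transcription factors, which SCAP carries to the Golgi for cleavage when sterols are low and which INSIG proteins hold back when sterols are high. In bone marrow stroma these lipids serve membranes, protein prenylation and the fat stores of the adipocytes that MSPC can form.

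Most of the pathway was at nearly the same level in both libraries. Only Nsdhl was called, that is, had its whole 95% counting interval beyond 2-fold. It was lower in the mutant, and none of the 31 was called higher. In bulk RNA, fewer cells of a type and less RNA per cell cannot be told apart. Of the 13142 genes with at least 20 counts, 6.98% were called higher and 8.29% lower (15.3% in all). Among the 11172 genes with at least 100 counts, which fits the depth of the members better, 6.7% were called higher and 7.95% lower (14.6% in all). The members whose interval lay beyond 1.5-fold were Fasn and Sqle, both higher, and Nsdhl, Ebp and Scd2, all lower, and this looser rule called 15.7% of all measured genes higher and 15.6% lower (31.3% in all).

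The spread among the members was narrow. Their median log2 ratio of mutant over control was 0.00 (-0.0013 before rounding), and that of all measured genes was 0.01. The middle 50% of the members lay between -0.14 and 0.22, a width of 0.35, against a width of 1.09 for all measured genes and 1.0 for those with at least 100 counts. In all, 24 of 31 members (77.4%) differed by less than 1.5-fold, against 52.9% of all measured genes and 56.6% of those with at least 100 counts. The counting interval lay above 1 for 10 members, below 1 for 9 and held 1 for 12. The log2 ratio changed sign for 12 of the 31 members under at least 1 of 6 alternatives of scaling, trend removal and prior count. Intervals in this text are exact Clopper-Pearson intervals from the split of a gene's counts, after scaling by library size (TMM), and cover counting error only.

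The promoters of 4 members are shown, since these members cover high and low ratios: the log2 ratio was 0.80 for Fasn, -0.18 for Hmgcs1, -0.77 for Ebp and -1.37 for Nsdhl. Each is the 250 bases before the start site on the gene's own strand, from RefSeq on GRCm38.p6 (chr13:119690101-119690350 on the plus strand, chr11:120824548-120824797 on the minus strand, chrX:72918271-72918520 on the plus strand and chrX:8193513-8193762 on the minus strand). Capitals mark matches on either strand to CCAAT, the letters bound by NF-Y, a partner of SREBP, and to TCACNCCAC, a form of the sterol regulatory element that SREBP binds.
Hmgcs1: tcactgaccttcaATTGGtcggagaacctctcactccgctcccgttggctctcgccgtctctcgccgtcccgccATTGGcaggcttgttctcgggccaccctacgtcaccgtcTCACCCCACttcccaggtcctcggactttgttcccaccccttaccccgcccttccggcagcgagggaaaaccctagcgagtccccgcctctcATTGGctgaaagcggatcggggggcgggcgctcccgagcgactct
Fasn: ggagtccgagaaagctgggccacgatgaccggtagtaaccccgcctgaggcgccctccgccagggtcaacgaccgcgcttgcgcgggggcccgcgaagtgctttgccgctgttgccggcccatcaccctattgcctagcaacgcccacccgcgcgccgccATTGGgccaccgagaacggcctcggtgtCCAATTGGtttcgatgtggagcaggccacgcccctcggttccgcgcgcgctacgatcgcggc
Nsdhl: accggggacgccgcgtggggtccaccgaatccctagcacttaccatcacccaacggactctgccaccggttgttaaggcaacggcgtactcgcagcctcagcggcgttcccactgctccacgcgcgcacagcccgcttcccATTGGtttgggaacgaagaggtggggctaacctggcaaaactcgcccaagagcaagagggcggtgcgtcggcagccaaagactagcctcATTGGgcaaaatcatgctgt
Ebp: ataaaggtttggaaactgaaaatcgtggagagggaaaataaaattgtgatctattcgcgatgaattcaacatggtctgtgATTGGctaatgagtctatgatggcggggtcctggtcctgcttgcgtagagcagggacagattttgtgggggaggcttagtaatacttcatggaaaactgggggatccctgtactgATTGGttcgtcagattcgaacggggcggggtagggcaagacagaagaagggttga
Hmgcs1 held the sterol element at position -137 from its start site and CCAAT on the reverse strand at -237, -176 and -45. Fasn held 3 CCAAT matches, of which those at -62 and -59 overlap on opposite strands. Nsdhl held CCAAT at -109 and -20, and Ebp at -170 and -55, so the letters were present in members with high and with low ratios.

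Of the 31 members, 24 had an entry in the promoter table. Fdps, Fdft1, Sqle, Stard4, Scd1, Scd2 and Fads1 had none. CCAAT occurred before at least 1 start site of 18 of the 24 (75%), against 37.5% of the 27025 genes in the table. The GC box GGGCGG, bound by SP1, occurred in 20 (83.3%, against 35.4%), and the E-box CACGTG in 5 (20.8%, against 6.86%). TCACNCCAC occurred in 1 of the 24 (4.17%), against 1.22% of all genes in the table. The 27025 genes were not limited to those measured in these libraries, while all members were measured, so the shares are not matched for expression. Both strands were searched, and these shares describe letters only and were not tested.

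**Figure D1:**
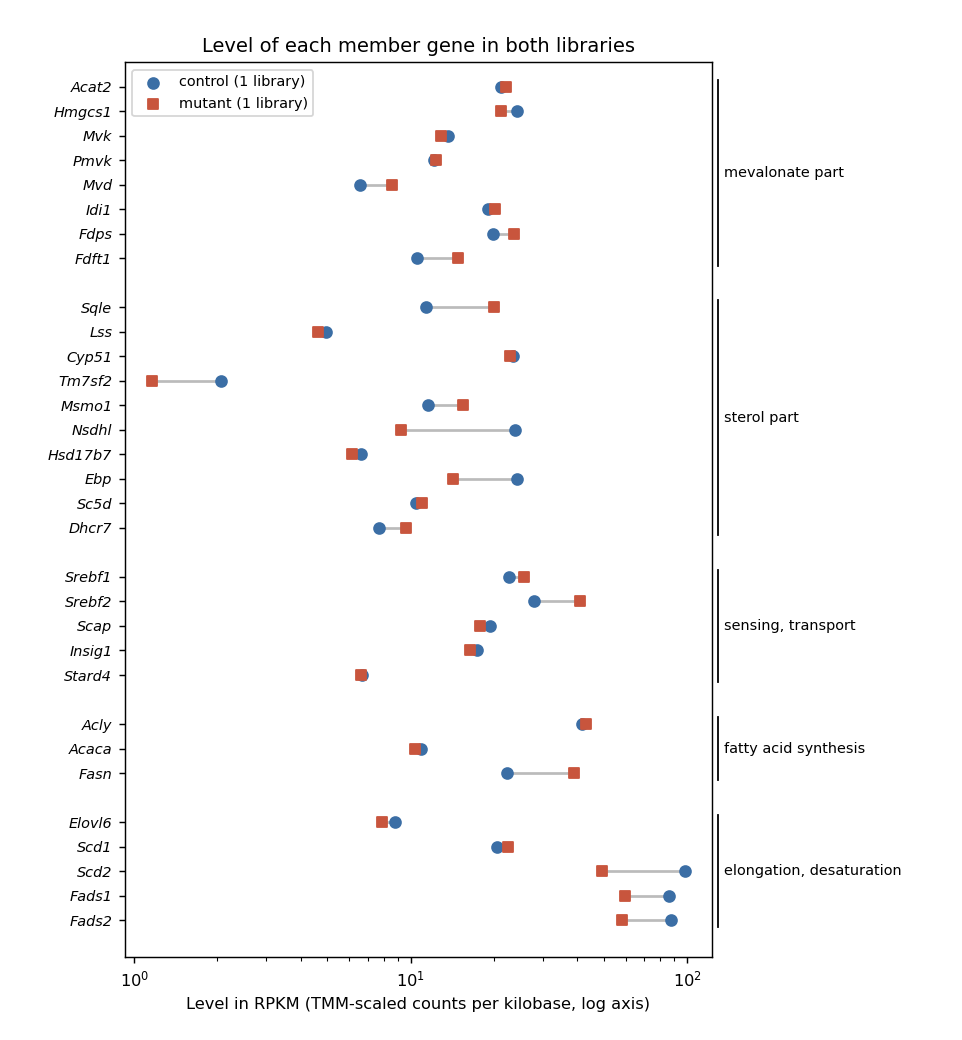
Level of each of the 31 genes in RPKM, on a log axis, in the control library (circles) and the mutant library (squares), 1 library each, grouped by role. Scd2, Fads1 and Fads2 sit farthest right in both libraries and Tm7sf2 farthest left, and most pairs of symbols nearly overlap.

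Levels between genes can be compared only per length, in RPKM, the counts divided by scaled library size and by the length of the longest annotated transcript. CPM below is the same quantity without the division by length and serves only to compare libraries. In the control library Scd2 was highest at 98.4 RPKM, followed by Fads2 at 87.6, Fads1 at 86.2 and Acly at 41.6. In the mutant library Fads1 came first at 59.6 RPKM, then Fads2 at 58.1, Scd2 at 49.1 and Acly at 43.2. The 3 desaturase genes thus led in both libraries, and their lead over Acly was smaller in the mutant. Tm7sf2 was lowest in both, at 2.06 and 1.16 RPKM, and Lss was next at 4.95 and 4.61 RPKM. The median measured gene was at 7.48 RPKM for control and 7.30 for mutant. The 31 members together took 0.304% of control counts (0.302 to 0.306, exact Clopper-Pearson) and 0.265% of mutant counts (0.263 to 0.268). These are shares of unscaled totals. After TMM scaling the gap was smaller, at 2937 and 2749 CPM for control and mutant. The sum over the 8 fatty acid enzymes was lower in the mutant on both scales (0.184% and 0.144%, or 1774 and 1493 CPM). Scd2 had the largest drop in these sums, from 537 to 268 CPM, while Fasn rose from 224 to 390.4 CPM. Of the 8, 3 had positive and 5 negative log2 ratios, so the lower sum does not describe the whole branch. This split depended on the processing. With length and GC trends removed, Acaca and Elovl6 were positive, at 0.31 and 0.13. With total counts, Acly was negative, at -0.04. The 18 cholesterol enzymes were slightly lower as shares (0.0787% and 0.0757%) and slightly higher after scaling (760.1 and 784 CPM).

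The 8 mevalonate enzymes among the members, which are not every step of this part, were all within 1.5-fold between the libraries. Their median log2 ratio was 0.07, and 0 were called. Acat2, whose product joins 2 acetyl-CoA, was at 47.9 and 49.98 CPM in control and mutant, a ratio of 1.04 (0.954 to 1.14). Hmgcs1, the HMG-CoA synthase gene, had 1939 and 1283 counts in control and mutant, or 83.8 and 73.8 CPM, and was 1.14-fold lower (1.06 to 1.22). It was the only gene of these 8 whose interval lay below 1. The mevalonate kinase gene Mvk (750 and 531 counts) and the phosphomevalonate kinase gene Pmvk (336 and 256) had intervals that held 1. Idi1, the isomerase gene that makes dimethylallyl diphosphate, was at 57.7 and 61.3 CPM, and its interval also held 1. These intervals are for TMM-scaled counts without removal of trends. With length and GC trends removed, the log2 ratio was -0.08 for Hmgcs1, -0.26 for Mvk, -0.25 for Pmvk and 0.19 for Idi1.

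Mvd, Fdps and Fdft1 were the 3 mevalonate genes whose interval lay above 1 for TMM-scaled counts. With length and GC trends removed, their log2 ratios were 0.19, 0.18 and 0.45. Mvd, which decarboxylates mevalonate diphosphate, had 277 and 273 counts, or 11.98 and 15.7 CPM, and was 1.31-fold higher (1.11 to 1.56). Fdps, the farnesyl diphosphate synthase gene, was at 58.5 and 69.8 CPM and was 1.19-fold higher (1.10 to 1.29). Fdft1, the squalene synthase gene at the entry to sterols, was at 38.9 and 54.8 CPM and was 1.41-fold higher (1.28 to 1.54). Some of these genes share sequence with other genes, so their reads may be uncertain. Of the 50-base words of the longest transcript, 45.9% also occur in transcripts of other genes for Acat2 (Acat3 and Tcp1), 30.7% for Fdft1 (Ctsb and the gene model Gm6781), 30.5% for Idi1, 13.6% for Hmgcs1 and 11.7% for Fdps.

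**Figure D2:**
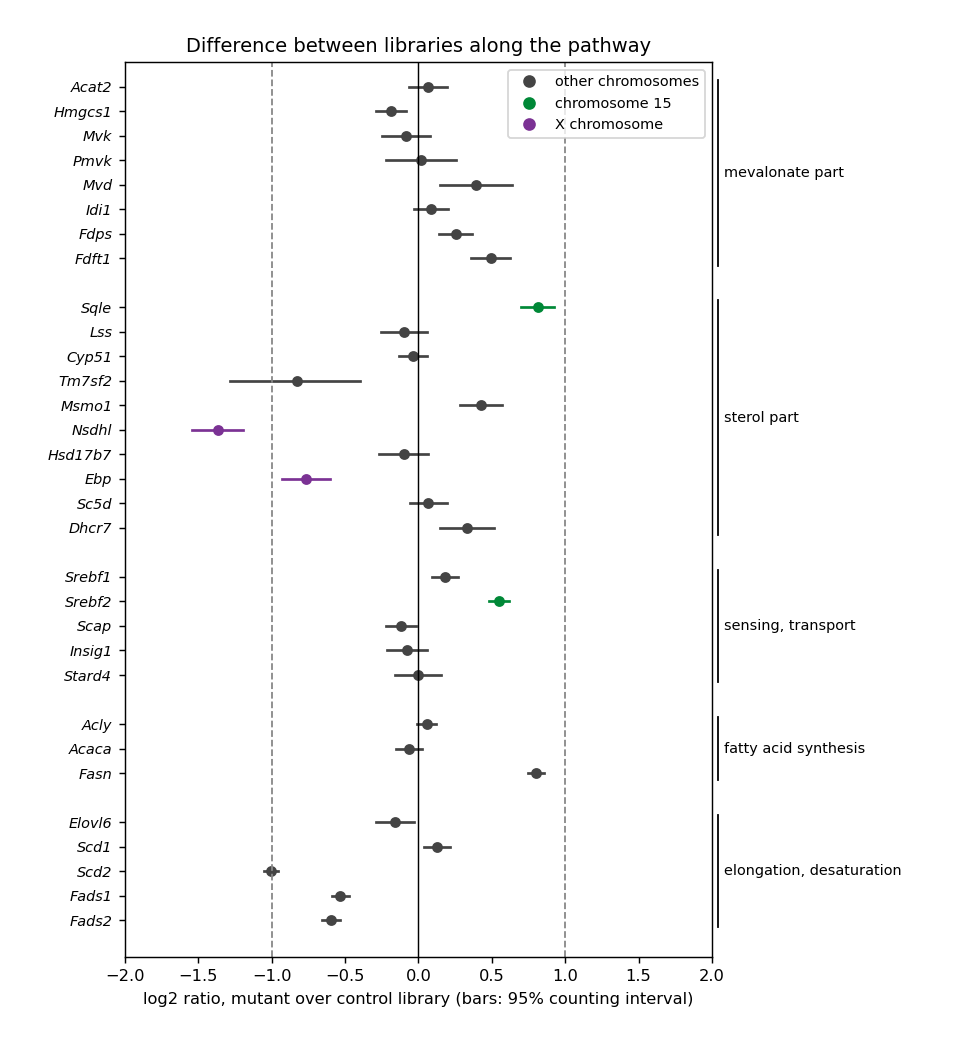
Log2 ratio of mutant over control library for each member in pathway order, with its 95% counting interval, and dashed lines at 2-fold. Nsdhl alone has its whole interval beyond a dashed line, Scd2 lies on one, and members on chromosome 15 (Sqle, Srebf2) and on the X chromosome (Nsdhl, Ebp) are coloured.

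The 10 enzymes of the sterol part varied most among themselves, with a middle 50% of log2 ratios from -0.60 to 0.26 and a median of -0.07. Sqle, the squalene epoxidase gene and a rate-limiting step of sterol synthesis, had 1177 control and 1554 mutant counts, or 50.9 and 89.4 CPM. It was 1.76-fold higher (1.63 to 1.9). Fasn had a similar ratio with an overlapping interval, and exceeded Sqle once length and GC trends were taken out (log2 ratios of 1.11 and 0.91). Msmo1, which removes methyl groups from the sterol ring, was at 34.3 and 46.1 CPM and was 1.34-fold higher (1.22 to 1.48). Dhcr7, the last-step reductase gene whose substrate is also the precursor of vitamin D, was at 21.6 and 27.1 CPM and was 1.26-fold higher (1.10 to 1.43).

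Nsdhl and Ebp stood at the low end. Nsdhl, the dehydrogenase gene of sterol C4 demethylation, had 1197 control and 348 mutant counts. This was 51.8 and 20.01 CPM, a 2.59-fold lower level (2.29 to 2.92), and 23.9 against 9.23 RPKM. Among the members it thus went from rank 8 to rank 25 by RPKM. Ebp, which encodes the sterol isomerase, had 975 and 431 counts, or 42.2 and 24.8 CPM, and was 1.7-fold lower (1.52 to 1.91). Neither gene shares a 50-base word with another gene. Both lie on the X chromosome, where the median log2 ratio of all 431 measured genes was -1.15. Measured from that median, Nsdhl was at -0.22 and Ebp at 0.38, and Nsdhl was then not called.

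Tm7sf2, the gene of a sterol C14 reductase, was low and also lower in the mutant, with 147 and 62 counts, a 1.78-fold difference (1.32 to 2.44) whose interval is the widest of the set. The remaining 4 sterol enzymes had intervals that held 1. Cyp51, the lanosterol demethylase gene, was at 92.3 and 89.9 CPM, Sc5d, the lathosterol desaturase gene, at 50.02 and 52.4 CPM, Lss, which closes the sterol rings, at 34.6 and 32.3 CPM, and Hsd17b7, the ketosteroid reductase gene, at 30.4 and 28.4 CPM. Of the 10 sterol enzymes, 4 had positive and 6 negative log2 ratios, but this split depended on the processing. With length and GC trends removed, Lss, Cyp51 and Hsd17b7 were positive, at 0.16, 0.03 and 0.10. Sc5d was negative with total counts, at -0.03, and at 0.31 with length and GC trends removed.

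Of the 5 genes of sterol sensing and transport, Srebf2 differed most. Srebf2, which encodes the SREBP that mainly drives cholesterol genes, had 3284 and 3605 counts, or 142 and 207 CPM, and was 1.46-fold higher in the mutant library (1.39 to 1.53). Srebf1, whose product mainly drives fatty acid genes, had 2263 and 1926 counts, or 97.8 and 111 CPM, and was 1.13-fold higher (1.06 to 1.20). Neither transcription factor gene was called. The small difference in Srebf1 depended on the scaling, with a log2 ratio of 0.08 with total counts and 0.05 with totals that omit the top 50 genes.

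The SREBP escort gene Scap was at 81.8 and 75.4 CPM, a ratio of 0.922 (0.858 to 0.989). The retention factor gene Insig1, itself a sensitive SREBP target, was at 46.7 and 44.2 CPM (ratio 0.946, 0.862 to 1.04). Stard4, which encodes a cytosolic sterol carrier, was at 33.9 and 33.8 CPM (ratio 0.999, 0.896 to 1.11). These 3 lay close to equal levels, while Srebf2 stood at a log2 ratio of 0.55. With length and GC trends removed, Stard4 was at 0.24 and Srebf2 at 0.61. Srebf2 and Sqle lie on chromosome 15, whose 501 measured genes had a median log2 ratio of 0.56. Measured from that median, Srebf2 was at -0.02 and Sqle at 0.25.

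In fatty acid synthesis, Fasn stood apart from its partners. Fasn, the fatty acid synthase gene, had 5183 control and 6789 mutant counts, or 224 and 390.4 CPM, and was 1.74-fold higher (1.68 to 1.81). Once trends with length and GC content were taken out, its ratio was 2.15 (2.08 to 2.23), which is a call. Acly, which supplies cytosolic acetyl-CoA from citrate, was at 184 and 191 CPM, a ratio of 1.04 (0.994 to 1.09). Acaca, the acetyl-CoA carboxylase gene and committed step, was at 103 and 98.6 CPM, a ratio of 0.955 (0.897 to 1.02). With length and GC trends removed, the log2 ratio of Acaca was 0.31 and that of Acly 0.08. Fasn and Acaca are the longest transcripts of the set, at 10050 and 9513 bases, and 52.6% of the Acaca words also occur in the gene model Gm5182. All 3 genes and Srebf1 are on chromosome 11, whose median log2 ratio was 0.07.

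Elongation and desaturation genes were the group with the lowest median, -0.53, and 4 of 5 had their interval below 1. Scd2, a stearoyl-CoA desaturase gene that makes monounsaturated fatty acids, had 12421 control and 4657 mutant counts, or 537 and 268 CPM. It was 2.01-fold lower (1.94 to 2.07), just outside the call, which Nsdhl met with the nearest bound of its interval at 2.29-fold. Scd2 was called lower with total counts (2.15-fold, 2.08 to 2.23) and with totals that omit the top 50 genes (2.19-fold, 2.12 to 2.27). With length and GC trends removed it was nearer to equal levels, at a log2 ratio of -0.83. Its paralog Scd1, separated from it by Scd4, was at 99.4 and 108 CPM, a ratio of 1.09 (1.03 to 1.16). The small difference in Scd1 depended on the scaling, with a log2 ratio of 0.02 with total counts and -0.00 with totals that omit the top 50 genes. Of the 50-base words, 4.01% for Scd2 and 4.66% for Scd1 occur in another gene.

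Fads1 and Fads2, the delta-5 and delta-6 desaturase genes that make polyunsaturated fatty acids, lie next to each other on chromosome 19. Fads1 had 6895 and 3583 counts, or 298 and 206 CPM, and was 1.45-fold lower in the mutant library (1.39 to 1.51). Fads2 had 6385 and 3181 counts, or 276 and 183 CPM, and was 1.51-fold lower (1.45 to 1.58). Their intervals overlapped. Fads3, the third gene of this cluster and adjacent to Fads2, is not a member and had 2918 and 4965 counts, or 126 and 286 CPM. It was called higher, at 2.26-fold (2.16 to 2.37), opposite to its neighbours, but was not called with totals that omit the top 50 genes (2.07-fold, lower bound 1.98). Elovl6, which elongates palmitate, was at 52.4 and 46.9 CPM and 1.12-fold lower (1.02 to 1.22), but at a log2 ratio of 0.13 with length and GC trends removed. Of the 5 members on chromosome 19, Tm7sf2, Scd2, Fads1 and Fads2 were lower and Scd1 was not, while the median log2 ratio of the chromosome was 0.10.

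**Figure D3:**
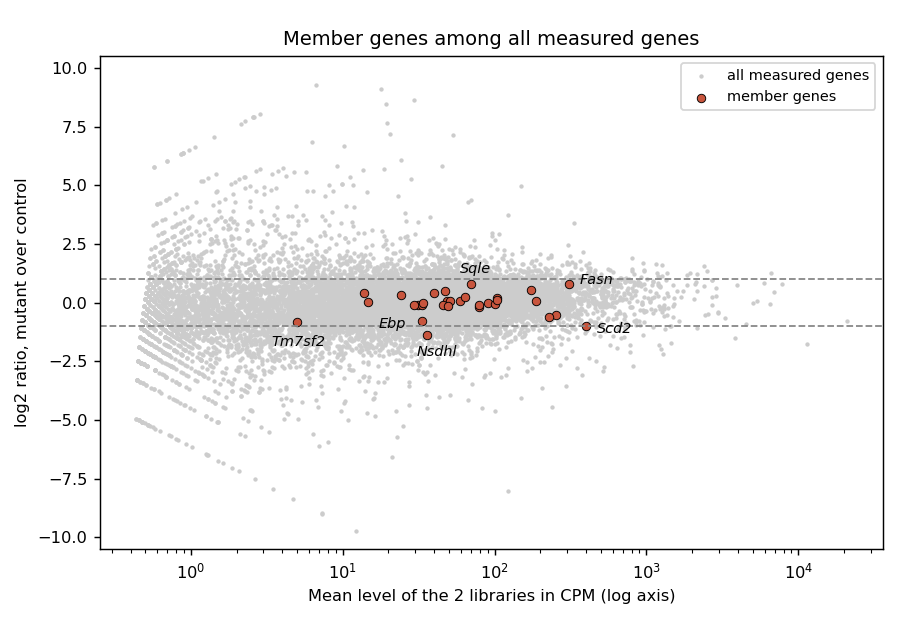
Log2 ratio of mutant over control library against the mean level in CPM (log axis) for the 13142 measured genes (grey) and the 31 members (red), with dashed lines at 2-fold. The members lie in the dense middle of the plot, and 30 of 31 are uncalled.

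Chromosomes 15 and X stood apart from the others in these libraries. On chromosome 15, 18.2% of measured genes were called higher and 3.39% lower, and on the X chromosome 0.696% were called higher and 45.9% lower. The medians of the other 18 chromosomes lay between -0.11 and 0.17, with 4.1% to 8.28% of genes called higher and 4.22% to 9.37% lower. The 4 members on chromosomes 15 and X held the highest log2 ratio (Sqle, 0.81, with Fasn on chromosome 11 at 0.80) and the lowest (Nsdhl, -1.37). The 27 members elsewhere had a median of 0.00 and a middle 50% from -0.11 to 0.15, and 0 were called. Nsdhl, Ebp, Sqle and Srebf2 each lay within the middle 50% of measured genes on their own chromosome. What part of each member's difference goes with its chromosome was not tested.

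**Figure D4:**
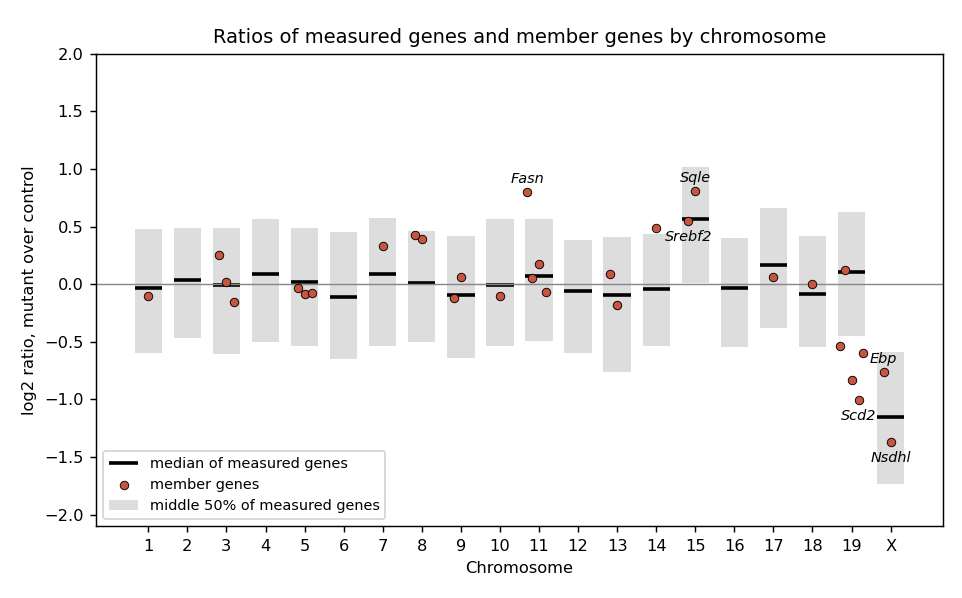
Log2 ratio of mutant over control library by chromosome: grey bars span the middle 50% of measured genes, black lines are their median, and red points are the 31 members. Chromosome 15 has a median of 0.56 and X of -1.15, and the members there lie inside the grey bars, while Fasn (chromosome 11), Fdft1 (chromosome 14) and Tm7sf2, Scd2, Fads1 and Fads2 (chromosome 19) lie outside theirs.

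Genes around the pathway were read from lists beside the members. In SREBP processing, 1 of 10 genes was called, Mbtps2, which encodes the protease that makes the second cut of SREBP (1659 and 524 counts, 2.38-fold lower, 2.16 to 2.63). It lies on the X chromosome and was not called relative to the X median or with length and GC trends removed. The retention factor gene Insig2 was at 83.2 and 46.2 CPM, a log2 ratio of -0.85, against -0.08 for its paralog Insig1. Among 10 genes of sterol uptake, transport and storage, 1 was called. Lrp1, a large lipoprotein receptor gene, was 2.12-fold lower (67770 and 24080 counts, 2.08 to 2.15), but its ratio was 0.645 with length and GC trends removed, which is no call. Tmem97, a sterol-regulated gene, was 2.19-fold higher without a call (1.99 to 2.40), and the lysosomal lipase gene Lipa was 2.07-fold lower without a call (1.91 to 2.24), but was called with total counts (2.22-fold).

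The transporters of sterol efflux differed in opposite directions. Abca1, which loads cholesterol onto apolipoproteins, was 3.4-fold lower in the mutant library (778 and 172 counts, 2.88 to 4.03). Abcg1, its partner in efflux, had 2 and 66 counts, a ratio of 43.9 (11.7 to 370.02), at 3.8 CPM in the mutant. Abcg1 passed the minimum of 20 counts through the mutant library alone. Monocyte and macrophage markers, cells known for high Abcg1, were higher in the same library: 10 markers summed to 8.86 and 42.5 CPM in control and mutant, with 6 of 10 at 0 counts in the control. What part of the Abcg1 value goes with these cells was not tested. The other 8 measured genes of oxysterol sensing and efflux were not called, and the LXR genes Nr1h2 and Nr1h3 had log2 ratios of -0.20 and 0.45.

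Of the 12 genes of the isoprenoid branches, Pdss1, which makes the side chain of coenzyme Q, was called higher (137 and 283 counts, 2.75-fold, 2.23 to 3.39), and Pdss2 was 2.22-fold higher without a call (1.74 to 2.84). Of 18 measured genes in other fatty acid synthesis, activation and elongation, 2 were called higher and 2 lower. Beside Fads3, the elongation dehydratase gene Hacd1 was 2.43-fold higher (2.17 to 2.73), but was not called with totals that omit the top 50 genes. Acacb, the mitochondrial form of acetyl-CoA carboxylase, was 4.7-fold lower (125 and 20 counts, 2.92 to 7.96). The cytosolic relative Acaca had a log2 ratio of -0.07, or 0.31 with length and GC trends removed. Elovl4, an elongase gene of very long fatty acids, had 27 and 1 counts, a ratio of 0.0493 (0.0012 to 0.299). It passed the minimum of 20 counts through the control library alone.

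Of 7 genes that supply NADPH, which both pathways consume, Idh1, the cytosolic isocitrate dehydrogenase gene, was 3.10-fold lower (2038 and 495 counts, 2.8 to 3.42). Taldo1, the transaldolase gene of the pentose phosphate pathway, was 2.24-fold higher (2.11 to 2.38), but was not called with total counts or with length and GC trends removed. The malic enzyme gene Me1 and the pentose phosphate genes G6pdx and Pgd were not called, at log2 ratios of -0.11, -0.28 and 0.44. Of 17 glycerolipid genes, Lpin1, a phosphatidate phosphatase gene and known SREBP target, was called lower, with 584 and 71 counts, a 6.18-fold difference (4.83 to 8.03). The lipid droplet gene Plin2 was 2.1-fold higher without a call (1.96 to 2.25). Of 18 measured genes of fatty acid oxidation 0 were called, with a median log2 ratio of -0.02, and Acadm, a medium-chain dehydrogenase gene, was lowest at -1.07 and was called lower with total counts (2.25-fold).

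**Figure D5:**
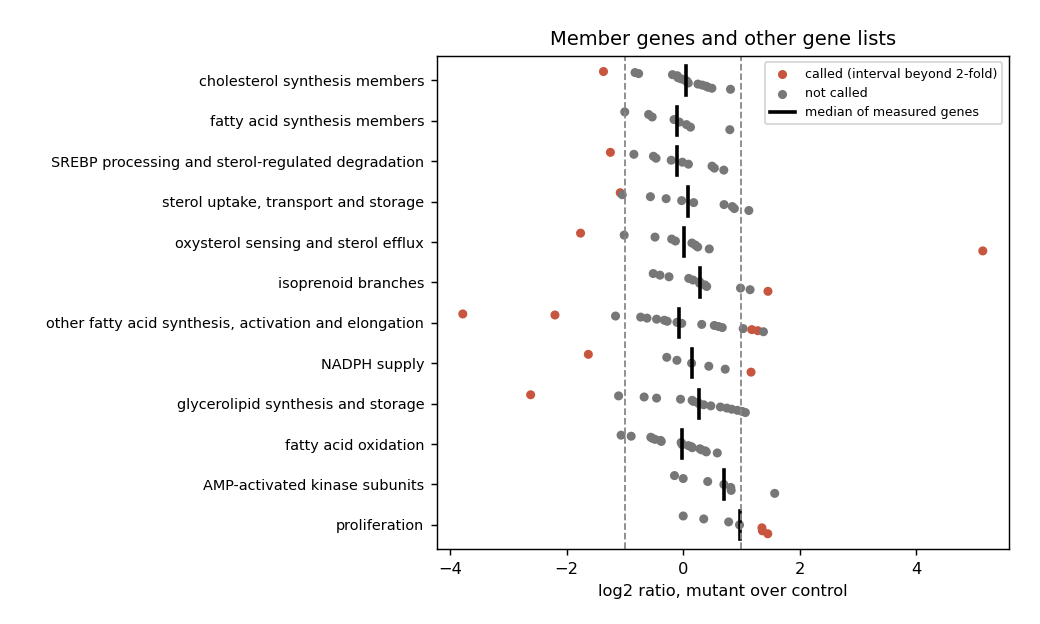
Log2 ratio of mutant over control library for the cholesterol and fatty acid members and for 10 other gene lists, with red points for called genes, grey for uncalled and a black line at each list's median. The medians of the lists of lipid genes lie between -0.11 and 0.28, and the points at the far left and right are Elovl4 and Abcg1.

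Of 7 subunit genes of AMP-activated kinase, which inhibits acetyl-CoA carboxylase, 0 were called. Their log2 ratios ran from -0.15 to 1.57, with a median of 0.70. That median is the value of Prkag1 on chromosome 15, which was at 0.13 relative to its chromosome. Prkaa1, also on chromosome 15, was at 0.00, and the highest, Prkag3, had 23 and 52 counts. Of 7 proliferation genes, 3 were called higher (Rrm2, Mcm3 and Mcm5, at 2.74-fold, 2.55-fold and 2.57-fold), while Mki67 had a log2 ratio of 0.00. What part of the Fasn and Sqle values goes with these genes was not tested.

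Sequencing depth was 22328659 counts for control and 18010963 for mutant. Of the genes behind the sort, Pdgfra and Pdgfrb (CD140) were present in both libraries, at 89.6 and 103 CPM and at 263 and 214 CPM, while Ly6a (Sca-1), at 94.1 and 35.2 CPM, was called lower (2.67-fold, 2.44 to 2.93). Nes, the gene whose promoter drives the Cre, was called higher (5192 and 10785 counts, 2.76-fold, 2.67 to 2.86). What part of the members' values goes with these markers was not tested. Endothelial markers summed to 0.259 and 1.15 CPM over 5 genes, and erythroid markers to 0.432 and 0.173 CPM over 4. Pan-haematopoietic markers summed to 0.389 and 12 CPM over 6 genes. Adipocytes make much fatty acid, and their 10 markers summed to 20.2 and 38.9 CPM in control and mutant. Pparg gave the largest part of that sum, at 12.1 and 19.6 CPM, and was not called. Adipoq, Plin1, Cidec and Lep, which define mature adipocytes, were at 0 counts in both libraries. Fabp4 (95 and 214 counts) and Lpl (4 and 24) were called higher, Lpl having passed the minimum of 20 counts through the mutant library alone. Retn went the other way, at 8 and 0 counts, which is below that minimum.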

How the data were processed

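The authors deposited raw read counts per Ensembl gene, not normalized. Per the submitters' processing notes, the tools were CASAVA, TopHat and edgeR and the build mm9. The sources used here give neither their versions nor the read counter, annotation release or strandedness, so reads of overlapping or antisense genes may be shared. Symbols came from the supplied gene name table (34490 of 35275 identifiers matched). Transcript lengths, chromosomes and the shared 50-base words came from GENCODE M21 and promoters from RefSeq GRCm38.p6, a later build than mm9.

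Totals were scaled by TMM (edgeR 4.0.16 under R 4.3.3), with factors of 1.0358 (control) and 0.9654 (mutant). Ratios are mutant over control with a 95% exact Clopper-Pearson interval (SciPy 1.17.1), and log2 ratios add a prior count of 0.5 to each library. A gene with at least 20 counts was called when its whole interval lay beyond 2-fold. With 1 library per genotype no p-value was computed. The procedure was tested on simulated counts that held counting error only, so that test does not cover differences between mice.

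All 31 members are named. Of each other list, called genes and up to 3 with the largest ratios were eligible. Nr1h2, Nr1h3, Me1, G6pdx, Pgd, Prkaa1, Prkag1, Mki67, Mid1ip1 and Acsl4 are named outside this rule and were chosen after their values were seen. The members and lists were chosen with earlier results of these data known, and the chromosome comparison was added after seeing the values. Alternatives were other scalings (upper-quartile factors, size factors of DESeq2 1.42.0, total counts, totals that omit the top 50 genes), removal of lowess trends over transcript length and GC content, other count minimums, folds, interval levels and prior counts, and omission of 5 members chosen by name for paralogs, pseudogenes or overlaps (Acat2, Fdps, Idi1, Scd1 and Scd2; by shared words, Acaca and Fdft1 were not among them). Some genes of these pathways are not analysed here.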

Additional observations from a re-analysis of the deposited data

How the results depend on the processing

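Of 76 summary values under alternatives, 63 stayed close to the reported one (counts within 1.5 times, medians within the bounds that the ordered ratios of the genes give for a median). Members called lower numbered 2 in place of 1 with total counts and with totals that omit the top 50 genes by abundance, by the addition of Scd2. With these scalings the members' median log2 ratio was -0.10 and -0.13. The median of all measured genes shifted by -0.10 and -0.13 as well, so the members' median stayed 0.007 below it (-0.00698). Of the calls over all genes, 45.7% were higher, against 37.5% with total counts and 35.3% with totals that omit the top 50. With length and GC trends removed, members called higher numbered 1 (Fasn) in place of 0, the members' median was 0.13 against 0.05 for all genes, and the fatty acid enzymes' median was 0.11 in place of -0.11. Beyond 1.5-fold, 2 members were called higher and 3 lower, of 2063 and 2046 genes in all. Beyond 3-fold, 0 members were called lower, of 378 genes higher and 464 lower. Relative to the median of its chromosome, an alternative added after seeing the data, 1 member was again called lower, but this was Scd2 (2.15-fold, 2.08 to 2.23) and not Nsdhl (1.17-fold, 1.03 to 1.32). No paired analysis was possible because each genotype has 1 library, which also left no replicate to omit. Depth limits Tm7sf2 most among the members.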

Other observations

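The differences on chromosomes 15 and X reached beyond the members. On the X chromosome 395 of 431 measured genes had a negative log2 ratio, and on chromosome 15 377 of 501 had a positive one. Xist, the RNA of the inactive X chromosome, had 21878 control and 9051 mutant counts, a 1.82-fold lower level (1.77 to 1.86). Among the lipid genes listed, Mid1ip1, which activates acetyl-CoA carboxylase, is X-linked and was higher in the mutant (502 and 601 counts, 1.59-fold, 1.41 to 1.80). Relative to the X median it was 3.53-fold higher (3.13 to 3.98), which is a call. The X-linked G6pdx and Acsl4 had log2 ratios of -0.28 and -0.46, both above the median of the X chromosome. These comparisons were made after the values were seen and have no replicate check.

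Sqle and Fasn had log2 ratios of 0.81 and 0.80, which became 0.25 and 0.73 relative to their chromosomes. Genes of earlier steps differed among themselves. Acly, Acaca and Hmgcs1 had log2 ratios of 0.06, -0.07 and -0.18, and Acat2, Mvk, Pmvk and Idi1 lay between -0.09 and 0.09. Mvd, Fdps and Fdft1 were higher, at 0.39, 0.25 and 0.49, and Fdft1 was at 0.54 relative to its chromosome. With length and GC trends removed, Acaca was at 0.31, Mvd at 0.19, Mvk at -0.26 and Pmvk at -0.25.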
